A study of Homo sapiens with 6 samples.

Results

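Homeobox transcription factor genes were followed in PC9ER, a human lung cancer cell line, with and without gefitinib, an inhibitor of the receptor tyrosine kinase EGFR. The members were chosen by symbol: rows of the table of coding genes of the HOXA to HOXD, PAX, LHX, DLX, MEIS, PBX, TGIF, IRX, MSX and NKX families and of the sine oculis family, with symbols such as SIX3. The rule gave 65 of 15376 coding genes, and 57 of them had reads in 3 or more of the 6 libraries. The other 8, HOXA7, HOXC12, HOXD12, IRX4, LHX9, NKX2-8, NKX3-2 and PAX7, had reads in 1 or 2 libraries and are only counted here; none of them passed the test.

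Total RNA was extracted, and 3 libraries are of control cells labelled DMSO, the vehicle, while 3 are of cells labelled with gefitinib at 1 µM. All cells are of 1 line grown with 10% serum, and all samples share 1 protocol text: 72 h of vehicle or of the compound DBZ, overnight serum starvation, then gefitinib over the final 6 h; no sample is labelled with DBZ. Whether the control cells were also starved of serum is not stated, and if they were not, serum and gefitinib cannot be told apart. Nothing in the labels says that replicates came from separate cultures, and p-values then measure only the spread between these libraries, which may be technical. In bulk RNA, fewer cells of a kind and less RNA per cell cannot be told apart.

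Homeobox genes encode transcription factors that bind DNA through a homeodomain. They set position along the body axis and cell identity in the embryo, and many stay active in adult epithelia and in tumours. HOX proteins bind DNA together with the PBX and MEIS proteins, which belong to the class with a 3-residue loop extension in the homeodomain, called TALE, as do TGIF and IRX. PAX proteins bind through a paired domain; PAX8 has only part of a homeodomain and PAX9 has none, so the symbol rule is wider than the homeodomain itself.

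Coding reads per library ranged from 13674237 in gefitinib replicate 1 to 38581498 in gefitinib replicate 3. Values are normalized reads, read counts that the authors scaled to the same total in every library. Principal component 2 of the log2 values, with 9.59% of the variance, set control replicate 1 apart at 38.1 from control replicates 2 and 3 at -12.6 and -28.8, and gefitinib replicate 1 at 23.3 from the other gefitinib libraries at -8.86 and -11.1. Of 7 epithelial marker genes, 6 fell and 1 rose, none was at 0, and their summed level ran from 86127 to 124201 normalized reads in control and from 71463 to 74540 in gefitinib libraries. Fibroblast markers summed to between 32.4 and 71.4 in control and between 47.6 and 68.0 in gefitinib libraries. Blood markers summed to between 17.8 and 29.6 in control and between 29.1 and 36.1 in gefitinib libraries. Of the 6 tested, CD14 was higher, at 7.12 ± 2.30 with gefitinib against 0.322 ± 0.557 in control (limma adjusted p = 0.000893), and 5 did not pass. LYZ, which held most of that sum, differed by 0.09 ± 0.31 on the log2 scale, and the other 4, PTPRC included, had means under 1 in both groups. Endothelial markers summed to between 1180 and 1360 in control and between 147 and 176 in gefitinib libraries, nearly all of it PECAM1, which fell from a mean of 1216 to 122. Neuroendocrine markers summed to between 39.6 and 46.6 in control and between 27.7 and 41.0 in gefitinib libraries. The part of the epithelial, PECAM1 and CD14 shifts in the results below was not tested.

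Of the 65 members, 20 fell and 10 rose after gefitinib (adjusted p of limma's test below 0.05), 30.8% and 15.4% of them. Over all 15229 genes tested, 22.8% were called lower and 28.3% higher, 51.1% in either direction. The 3 gefitinib and 3 control libraries did not overlap for 34 of the 65 members, and for 58.0% of all genes. Among the 28 members with a mean of 50 or more normalized reads, 15 fell and 6 rose, while 28.3% of 10764 genes at that level were lower and 33.0% higher, 61.2% in either direction. The libraries were separate for 23 of these 28, and for 69.0% of genes at that level. The median difference of the 57 members with reads in 3 or more libraries was -0.05 on the log2(value + 1) scale, beside 0.10 for all genes tested. Families moved in both directions, with the TGIF genes lower, the DLX genes higher and the HOX, PBX, sine oculis, IRX, PAX and LHX genes split. At least a 2-fold change was called lower for 14 members and higher for 7, against 9.92% and 12.4% of all genes. At 4-fold or more these were 5 and 3 members, against 2.27% and 3.43% of all genes.

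**Figure D1:**
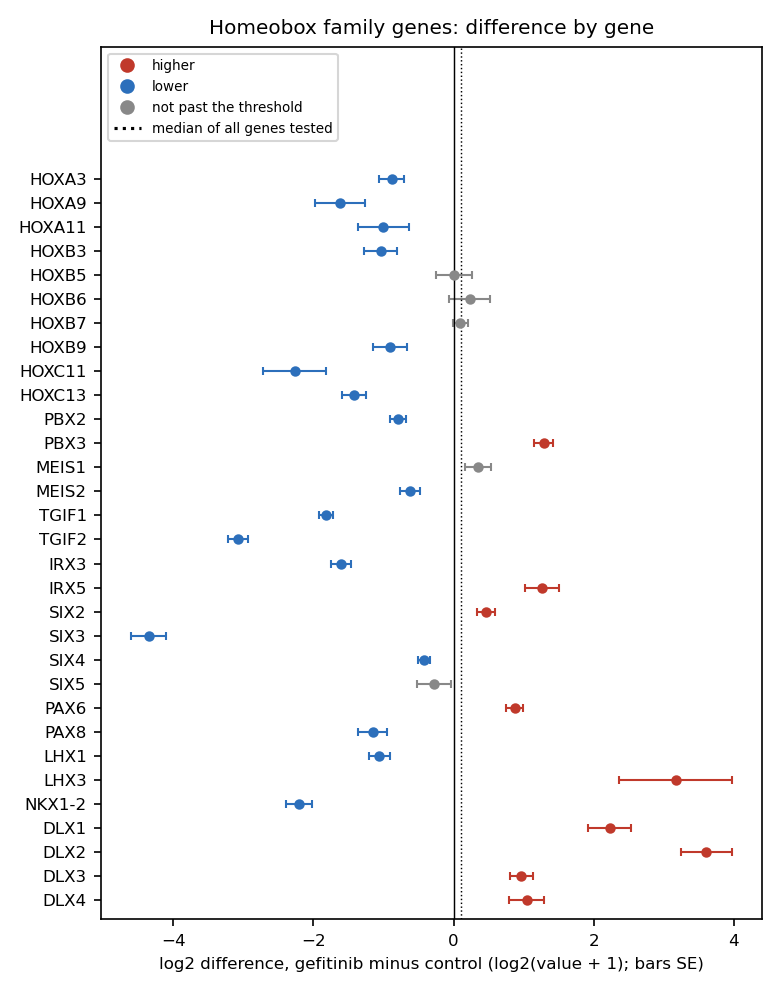
The difference of gefitinib from control, on the log2(value + 1) scale, is plotted for 31 members with a mean of 50 or more normalized reads or a call at a mean of 10 or more, with bars for the standard error. SIX3 at -4.35 and TGIF2 at -3.08 are farthest to the left, DLX2 at 3.61 and LHX3 at 3.17 farthest to the right, and the dotted line is the median of all genes tested.

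Both TGIF genes fell, and TGIF2 had the smallest p of all members. TGIF1 and TGIF2 encode TALE repressors that bind SMAD proteins and dampen transforming growth factor beta and retinoid responses. TGIF2 (chromosome 20, 36573488 to 36593950, GRCh38) had 554, 576 and 641 normalized reads in control replicates 1, 2 and 3 and 64.8, 69.6 and 72.2 in gefitinib replicates 1, 2 and 3. Every gefitinib library was far below every control library, and the means of 590 ± 45.1 and 68.9 ± 3.74 (SD, n = 3) differ 8.57-fold. On the log2 scale the difference was -3.08 with an SE of 0.15 (limma adjusted p = 1.15e-06). TGIF1 (chromosome 18, 3411608 to 3459978) had 2806, 2473 and 2514 normalized reads in control and 824, 692 and 696 in gefitinib libraries. The TGIF1 groups did not overlap either, with a difference of -1.82 ± 0.10 (limma adjusted p = 2.00e-06) and a 3.52-fold lower mean. A read-through gene, TGIF2-RAB5IF, shares 8.14% of the TGIF2 exon bases on the same strand.

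The promoter of TGIF2 is shown because this gene fell by the widest margin relative to its error. RefSeq (GRCh38.p14) gives a pair of starts for it, and the window of the downstream start, chr20:36573347-36573646 on the plus strand, runs from 250 bases before to 50 bases after that start. Capitals mark matches to 8 short motifs, searched on both strands. The AP-1 site was searched as TGACTCA and the cyclic AMP element, CRE, as TGACGT. The forkhead site was searched as GTAAACA and the homeodomain core as TAATTA. The E-box was searched as CACGTG and the TATA box as TATAAA. The EGR site was searched as GTGGGCG, and CCAAT is the last motif. The homeodomain and E-box letters are their own reverse complements.
TGIF2: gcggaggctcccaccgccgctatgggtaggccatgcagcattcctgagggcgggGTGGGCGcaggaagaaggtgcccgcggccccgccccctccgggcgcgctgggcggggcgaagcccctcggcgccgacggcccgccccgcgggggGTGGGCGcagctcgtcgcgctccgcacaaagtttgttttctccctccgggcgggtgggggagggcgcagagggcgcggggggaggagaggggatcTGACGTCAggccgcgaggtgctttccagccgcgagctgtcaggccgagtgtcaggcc
The window holds the EGR letters beginning 196 and 102 bases before the start. CRE letters begin 7 and 5 bases before it on opposite strands and overlap into 1 palindrome. The window of the upstream start, chr20:36573214-36573513, is not shown and holds no CRE letters. There the EGR letters begin 63 bases before the upstream start and at base 32 after it. Of 35116 RefSeq promoters of this length, 9.52% hold the EGR letters and 7.98% the CRE letters. Among the 16721 of coding genes tested, these shares are 13.1% and 9.75%. The window shown is 75.3% G and C, against a median of 64% in those 16721. A match describes the letters in the window and says nothing of binding.

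The PBX genes, whose products partner HOX proteins on DNA, moved apart from one another. PBX3 rose while PBX2 fell, and PBX4 had only 14.3 ± 5.07 and 15.8 ± 6.91 normalized reads (SD, n = 3; limma adjusted p = 0.883). PBX3 (chromosome 9, 125747345 to 125967377) had 197, 226 and 230 normalized reads in control and 476, 534 and 593 in gefitinib libraries. All gefitinib values lie above all control values, by 1.29 ± 0.14 on the log2 scale (SE; limma adjusted p = 5.83e-05), a 2.45-fold higher mean. PBX2 had 610, 704 and 659 in control and 349, 398 and 393 in gefitinib libraries, a difference of -0.79 ± 0.11 (limma adjusted p = 0.000354). The PBX2 groups did not overlap. Per kilobase of exon, PBX2 stood at 151 ± 10.8 normalized reads in control and PBX3 at 48.1 ± 4.01. With gefitinib the order turned, with PBX3 at 118 ± 12.8 and PBX2 at 87.5 ± 6.17.

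MEIS proteins bind PBX and keep it in the nucleus. MEIS2 had 448, 460 and 446 normalized reads in control and 245, 328 and 313 in gefitinib libraries, and fell by 0.62 ± 0.14 on the log2 scale (SE; limma adjusted p = 0.00487). MEIS1 had 110, 109 and 86.9 in control and 135, 121 and 134 in gefitinib libraries. The MEIS1 groups did not overlap, yet the difference of 0.35 ± 0.19 did not pass (limma adjusted p = 0.152). MEIS3 had 1 read in the 3 control libraries and 15 in the 3 gefitinib libraries, 13 of them in gefitinib replicate 3, the deepest library. The ratio per library depth was 12.6, with an exact 95% counting interval from 1.94 to 529, and rests mostly on that library. The fitted difference of MEIS3 did not pass (limma adjusted p = 0.183).

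**Figure D2:**
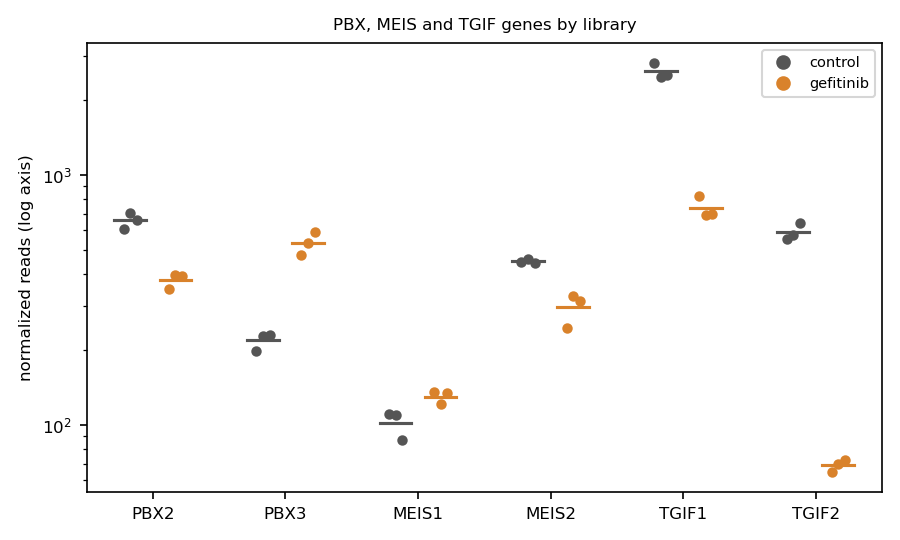
Normalized reads per library on a log axis are plotted for 6 TALE genes, with dots for the 3 libraries of a group and a line for their mean. PBX3 is higher in all gefitinib libraries, with a mean of 534 against 218, while TGIF2 drops from 590 to 68.9 and MEIS1 shifts little.

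The Iroquois genes IRX3 and IRX5, which pattern heart, limb and neural tissue, lie 644 kb apart on chromosome 16 and moved in opposite directions. IRX3 (54283304 to 54286763) had 511, 529 and 560 normalized reads in control and 200, 168 and 157 in gefitinib libraries. The IRX3 difference was -1.61 ± 0.14 (SE; limma adjusted p = 1.83e-05). IRX5 (54930862 to 54934485) had 31.7, 44.6 and 46.3 in control and 91.3, 98.5 and 105 in gefitinib libraries, a rise of 1.26 ± 0.24 (limma adjusted p = 0.00182). Neither gene overlapped between groups. Per kilobase, IRX3 stood at 183 ± 8.54 normalized reads in control and 60.1 ± 7.61 with gefitinib, still above IRX5, which went from 14.4 ± 2.80 to 34.6 ± 2.50.

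The sine oculis genes encode factors that act with EYA coactivators in eye, muscle, kidney and forebrain development. SIX3, a regulator of the forebrain and eye, fell furthest of all members. SIX3 (chromosome 2, 44941898 to 44946077) had 490, 406 and 458 normalized reads in control replicates 1, 2 and 3 and 17.2, 18.1 and 30.0 in gefitinib replicates 1, 2 and 3. The mean was 20.7-fold lower, at -4.35 ± 0.25 on the log2 scale (SE; limma adjusted p = 2.33e-06). SIX2, a kidney progenitor factor whose gene lies 59.1 kb away (45005161 to 45009430), had 296, 347 and 382 in control and 460, 474 and 468 in gefitinib libraries. SIX2 thus rose in the same libraries in which its neighbour fell, by 0.46 ± 0.13 (limma adjusted p = 0.0145). This smaller call was lost without gefitinib replicate 2 (limma adjusted p = 0.0641) or 3 (0.0577).

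SIX4 (chromosome 14, 60709528 to 60724348), the member with the highest control level per kilobase, had 2378, 2192 and 2091 normalized reads in control and 1603, 1625 and 1744 in gefitinib libraries. SIX4 fell by 0.42 ± 0.08 on the log2 scale (SE; limma adjusted p = 0.00243), and the groups were separate. SIX5 had 77.6, 120 and 132 in control and 79.4, 97.6 and 88.6 in gefitinib libraries (difference -0.28 ± 0.24, limma adjusted p = 0.375). Without control replicate 1, its lowest library, SIX5 was called lower at -0.51 (limma adjusted p = 0.0456). An opposite-strand transcript covers 56.8% of the SIX5 exon bases, and whether reads were counted by strand is not stated, here or for the other overlaps below.

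Of 5 EYA and DACH cofactor genes of the sine oculis proteins tested, 1 fell (20%, against 22.8% of all genes tested) and 4 did not pass, with a median of -0.14. The faller, EYA4, had 15.9 ± 8.04 normalized reads in control and 4.38 ± 4.82 with gefitinib (SD, n = 3; difference -1.92 ± 0.61 SE, limma adjusted p = 0.0260).

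**Figure D3:**
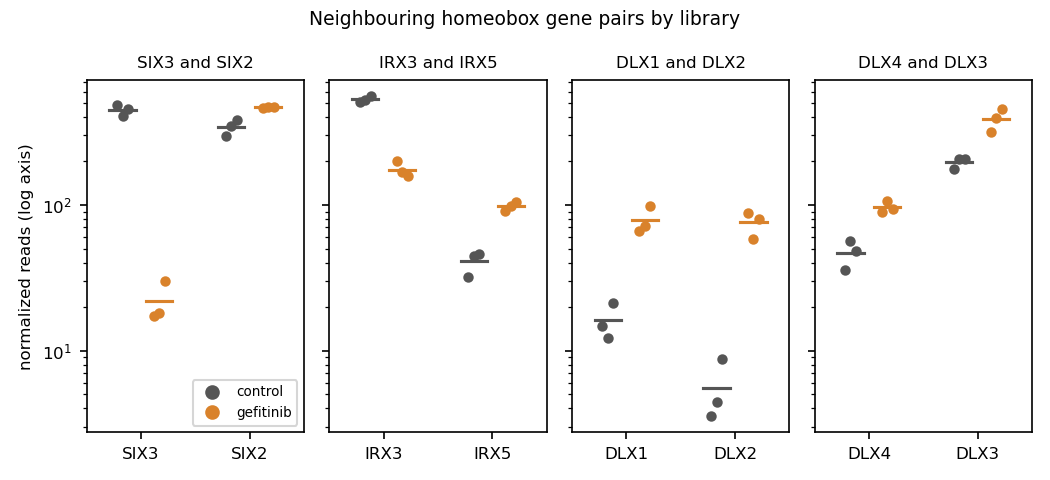
Normalized reads per library on a log axis are plotted for 4 pairs of neighbouring genes, with dots for libraries and a line for the group mean. SIX3 drops from 451 to 21.8 beside SIX2, which goes from 342 to 467, and IRX3 and IRX5 cross in direction, whereas both DLX pairs move up together.

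The 4 DLX genes among the members, relatives of fly Distal-less that act in forebrain, face, limb and skin, all rose. Of all genes tested, 28.3% were called higher. DLX1 and DLX2 lie 9.76 kb apart on chromosome 2 and point towards each other, and DLX4 and DLX3 lie 15.0 kb apart in the same arrangement on chromosome 17. DLX2 (172099439 to 172102900) had 3.53, 4.46 and 8.69 normalized reads in control and 88.6, 58.7 and 80.2 in gefitinib libraries. From 18 reads in the control group to 303 in the gefitinib group, its mean was 13.6-fold higher, with a difference of 3.61 ± 0.37 on the log2 scale (SE; limma adjusted p = 4.55e-05). DLX1 (172084740 to 172089677) had 14.8, 12.3 and 21.2 in control and 66.1, 71.4 and 98.4 in gefitinib libraries, a rise of 2.23 ± 0.30 (limma adjusted p = 0.000258). In both genes the lowest gefitinib library was far above the highest control library.

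DLX3, which drives terminal differentiation of skin and placenta, had 177, 205 and 206 normalized reads in control and 315, 395 and 454 in gefitinib libraries. The DLX3 mean was 1.98-fold higher, by 0.97 ± 0.17 on the log2 scale (SE; limma adjusted p = 0.00102). DLX4 had 36.0, 56.9 and 48.3 in control and 89.9, 107 and 93.3 in gefitinib libraries, with a difference of 1.04 ± 0.24 (limma adjusted p = 0.00585). The count of 4 of 4 was the same in every alternative run. MSX1, a muscle segment homeobox gene of the same broad class, had 1 read in the control and 3 in the gefitinib group, a ratio of 2.52 with an exact 95% counting interval from 0.202 to 132.

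The RefSeq promoters (GRCh38.p14) of DLX1, chr2:172085257-172085556 on the plus strand, and DLX2, chr2:172102851-172103150 on the minus strand, are shown because these neighbours rose together. Each runs 5′ to 3′ on the gene's strand, and capitals mark the same 8 motifs.
DLX1: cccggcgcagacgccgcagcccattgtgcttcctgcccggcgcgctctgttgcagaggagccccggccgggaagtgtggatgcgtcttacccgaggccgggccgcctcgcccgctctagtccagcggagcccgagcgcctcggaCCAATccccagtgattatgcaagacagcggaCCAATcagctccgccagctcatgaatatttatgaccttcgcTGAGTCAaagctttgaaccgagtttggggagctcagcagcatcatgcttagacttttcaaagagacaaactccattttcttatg
DLX2: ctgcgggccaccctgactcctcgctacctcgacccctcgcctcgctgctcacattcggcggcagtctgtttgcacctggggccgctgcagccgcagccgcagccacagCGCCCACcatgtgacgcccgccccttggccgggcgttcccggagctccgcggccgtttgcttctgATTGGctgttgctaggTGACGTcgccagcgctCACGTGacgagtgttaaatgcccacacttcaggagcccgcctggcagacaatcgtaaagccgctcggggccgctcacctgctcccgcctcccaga
The DLX1 window holds CCAAT beginning 106 and 75 bases before the start and the AP-1 letters 34 bases before it. In DLX2 the EGR letters begin 142, CCAAT 77, CRE 61 and the E-box 45 bases before the start, so CCAAT is the motif found in both windows. CCAAT letters stand in 34.6% of the 35116 promoters, the AP-1 letters in 4.95% and the E-box in 7.26%. Of the members, 37 had RefSeq promoters in the table, 68 windows in all, and the shares below are set beside those of the 16721 promoters of coding genes tested. CCAAT stood in 30 of the 68 windows (44.1%, against 34.3%), the EGR letters in 11 (16.2%, against 13.1%) and the CRE letters in 9 (13.2%, against 9.75%). The E-box stood in 5 (7.35%, against 8.75%) and TATA in 4 (5.88%, against 7.20%). The AP-1 and forkhead letters stood in 1 window each (1.47%, against 3.88% and 2.66%), and the homeodomain letters in 0, against 2.59%. Some windows of 1 gene overlap, as do those of TGIF2, so they are not independent.

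HOX genes lie in clusters in which low-numbered paralogue groups act towards the head and high-numbered groups towards the tail and limb ends. Of 24 HOX genes with reads in 3 or more libraries, 9 fell, 1 rose and 14 did not pass, with a median difference of -0.38. That is 37.5% lower and 4.17% higher, beside 22.8% and 28.3% of all genes tested. In paralogue groups 9 to 13, 7 of 8 fell, in groups 4 to 8 0 of 11 passed with limma in either direction, and in groups 1 to 3, 2 of 5 fell and 1 rose; over all genes 51.1% were called in either direction. In groups 4 to 8 the count was also 0 at an unadjusted limma p under 0.05 and 0 with edgeR (7 genes tested) and DESeq2 (11 tested) on recovered reads. This grouping was made after the values were seen, and 8 of the 11 genes of groups 4 to 8 had means under 20 normalized reads in both groups. The count of 7 in groups 9 to 13 stood at 5 to 7 over the alternatives, the lowest where a filter left fewer genes to test. Summed over the 8 genes of groups 9 to 13, the level was 683, 747 and 745 normalized reads in control and 333, 282 and 256 in gefitinib libraries. For the 16 genes of groups 1 to 8 the sum was 1007, 1027 and 944 in control and 854, 942 and 926 in gefitinib libraries, and these groups of libraries did not overlap either.

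HOXC13, a factor of hair and nail, carried most of the reads of the high-numbered groups. HOXC13 (chromosome 12, 53938765 to 53946544) had 459, 523 and 530 normalized reads in control and 241, 174 and 157 in gefitinib libraries. The groups were well apart, at -1.42 ± 0.18 on the log2 scale (SE; limma adjusted p = 0.000145). HOXC11 had 27.5, 34.6 and 40.5 in control and 2.65, 8.13 and 10.3 in gefitinib libraries, a difference of -2.27 ± 0.45 (limma adjusted p = 0.00241). HOXC10 fell from 13.5 ± 3.67 to 2.27 ± 0.424 (SD, n = 3), 47 reads in the control against 9 in the gefitinib group. Further along the same cluster, HOXC9, HOXC8, HOXC6 and HOXC4 had means between 4.82 and 19.5 in either group and did not pass, with differences of 0.36, -0.70, 0.69 and -0.36. The HOXC10 difference was -2.13 with a pseudocount of 1 and -1.33 with a pseudocount of 5.

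In the HOXA cluster on chromosome 7, HOXA9, a regulator of blood progenitors, had 21.9, 31.2 and 19.3 normalized reads in control and 5.29, 9.94 and 6.56 in gefitinib libraries. It fell by 1.62 ± 0.36 on the log2 scale (SE; limma adjusted p = 0.00428), with no overlap between groups. HOXA13, which acts in the limb ends and urogenital tract, fell from 11.2 ± 2.29 to 3.49 ± 0.794 (SD, n = 3; limma adjusted p = 0.00716). The HOXA13 call was lost with DESeq2 on recovered reads (adjusted p = 0.0575), and its difference of -1.44 was -0.93 with a pseudocount of 5. HOXA11, a factor of limb and uterus, had 21.2, 35.7 and 32.8 in control and 17.2, 18.1 and 8.91 in gefitinib libraries. HOXA11 had a 2.03-fold lower mean and passed narrowly (limma adjusted p = 0.0470, between 0.0197 and 0.160 in the alternatives), and the call was lost in 7 alternatives, among them those without control replicate 2 (0.160) or 3 (0.132), without gefitinib replicate 1 (0.0689), 2 (0.0777) or 3 (0.143), and with a pseudocount of 0.5 (0.0512). An antisense gene shares 31.1% of its exon bases.

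HOXA3, of the neck and pharynx, was the HOXA gene with the highest values. It had 193, 212 and 173 normalized reads in control and 119, 97.6 and 95.6 in gefitinib libraries and fell by 0.88 ± 0.18 on the log2 scale (SE; limma adjusted p = 0.00280). HOXA2, HOXA4, HOXA5 and HOXA6 had means between 0.915 and 16.2 in either group and did not pass.

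HOXB7 had the highest HOX level per kilobase in both groups and did not move past the test. It had 460, 470 and 437 normalized reads in control and 511, 464 and 487 in gefitinib libraries, groups that overlap, with a difference of 0.10 ± 0.11 on the log2 scale (SE; limma adjusted p = 0.486). HOXB9 and HOXB3, of the same cluster on chromosome 17, fell. HOXB9 had 118, 89.2 and 91.7 in control and 41.0, 59.6 and 58.1 in gefitinib libraries, a difference of -0.91 ± 0.24 (limma adjusted p = 0.0119). HOXB3 had 114, 118 and 107 in control and 43.6, 52.4 and 70.8 in gefitinib libraries, a difference of -1.04 ± 0.24 (limma adjusted p = 0.00503). Both genes were lower in every gefitinib library, while the genes of the cluster numbered between them did not pass. HOXB5 had 83.2, 62.5 and 60.8 in control and 52.9, 71.4 and 84.4 in gefitinib libraries (limma adjusted p = 0.992). HOXB6 had 66.3, 65.8 and 73.4 in control and 56.9, 124 and 73.6 in gefitinib libraries (limma adjusted p = 0.551). HOXB2, HOXB4 and HOXB8, with means between 1.82 and 15.7 in either group, did not pass. HOXB3 and HOXB6 share exon bases on the same strand, 16.6% of those of HOXB6, so reads there are of uncertain origin.

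**Figure D4:**
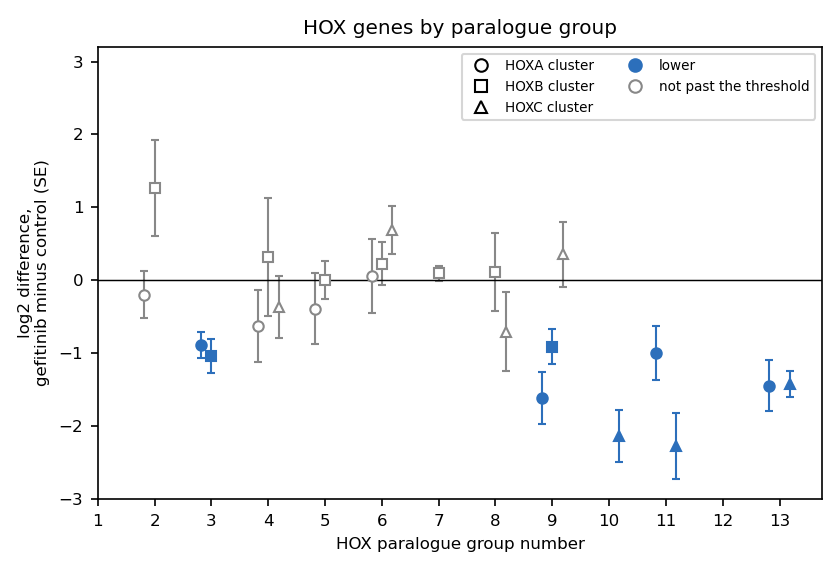
The log2 difference, gefitinib minus control with its standard error, is plotted against the paralogue group number for 23 HOX genes, with a symbol for each cluster and filled symbols past the threshold. Groups 9 to 13 hold 7 filled symbols below 0, from -0.91 to -2.27, and groups 4 to 8 hold no filled symbol.

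Among PAX genes, PAX6, the regulator of eye and pancreas, rose and PAX8, a thyroid and kidney factor, fell. PAX6 (chromosome 11, 31784779 to 31818062) had 583, 552 and 447 normalized reads in control and 906, 986 and 992 in gefitinib libraries. All gefitinib values were higher, by 0.87 ± 0.12 on the log2 scale (SE; limma adjusted p = 0.000284). The coding gene ELP4 shares 25.2% of the PAX6 exon bases on the opposite strand. PAX8 (chromosome 2, 113215997 to 113278950) had 164, 231 and 217 in control and 79.4, 108 and 84.8 in gefitinib libraries, a difference of -1.15 ± 0.21 (limma adjusted p = 0.00143). PAX9 had 25.2 ± 5.14 and 31.1 ± 11.4 (SD, n = 3; limma adjusted p = 0.570).

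LHX proteins join a homeodomain to LIM domains and specify neurons, pituitary and kidney. LHX1, an early kidney and head factor, had 289, 348 and 357 normalized reads in control and 151, 164 and 159 in gefitinib libraries, and fell by 1.06 ± 0.15 on the log2 scale (SE; limma adjusted p = 0.000296). LHX3, a pituitary and motor neuron factor, had 0, 4.46 and 12.5 in control and 26.5, 41.6 and 45.5 in gefitinib libraries. The control libraries of LHX3 were far apart from one another, yet each was below the lowest gefitinib library, and the difference was 3.17 ± 0.80 (limma adjusted p = 0.00880). That call was lost without gefitinib replicate 2 (limma adjusted p = 0.0876) or 3 (0.117). LHX4, its close relative, had 41.3 ± 12.5 and 24.1 ± 7.12 (SD, n = 3; limma adjusted p = 0.0885). The coding gene ACBD6 shares 30.8% of the LHX4 exon bases on the opposite strand. LHX6 had means of 1.20 and 1.37, and LHX2 had 2 reads in the control and 3 in the gefitinib group.

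Among NKX genes with reads in 3 or more libraries, NKX1-2, a gene of early neural and mesodermal progenitors, fell. NKX1-2 (chromosome 10, 124445239 to 124450184) had 727, 674 and 717 normalized reads in control and 206, 142 and 120 in gefitinib libraries. The gefitinib mean was 4.52-fold lower, at -2.21 ± 0.19 on the log2 scale (SE; limma adjusted p = 1.94e-05), and the groups were far apart. A processed transcript on the opposite strand covers 36.4% of its exon bases. The heart gene NKX2-5 and the beta cell gene NKX6-1 had means between 7.49 and 13.8 and did not pass.

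Set per kilobase of exon, the members with the highest control levels were SIX4 at 333 ± 21.9 normalized reads (SD, n = 3), TGIF1 at 316 ± 22.1 and HOXB7 at 298 ± 10.9. Neighbours in this order differ by less than the larger of their SDs. NKX1-2 at 210 ± 8.44 and HOXC13 at 208 ± 16.3 followed and did not differ beyond their spread. With gefitinib the order was HOXB7 at 319 ± 15.1, SIX4 at 249 ± 11.4, SIX2 at 212 ± 3.03, DLX3 at 143 ± 25.8 and PBX3 at 118 ± 12.8. TGIF1 went from rank 2 to rank 8 of 65, SIX3 from 7 to 30 and TGIF2 from 8 to 26, while DLX3 went from rank 13 to 4 and PBX3 from 16 to 5. All members together summed to between 14986 and 15332 normalized reads in control and between 10368 and 10802 in gefitinib libraries. The TGIF genes went from 3188 ± 158 to 806 ± 71.6 of these sums and the DLX genes from 265 to 639.

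**Figure D5:**
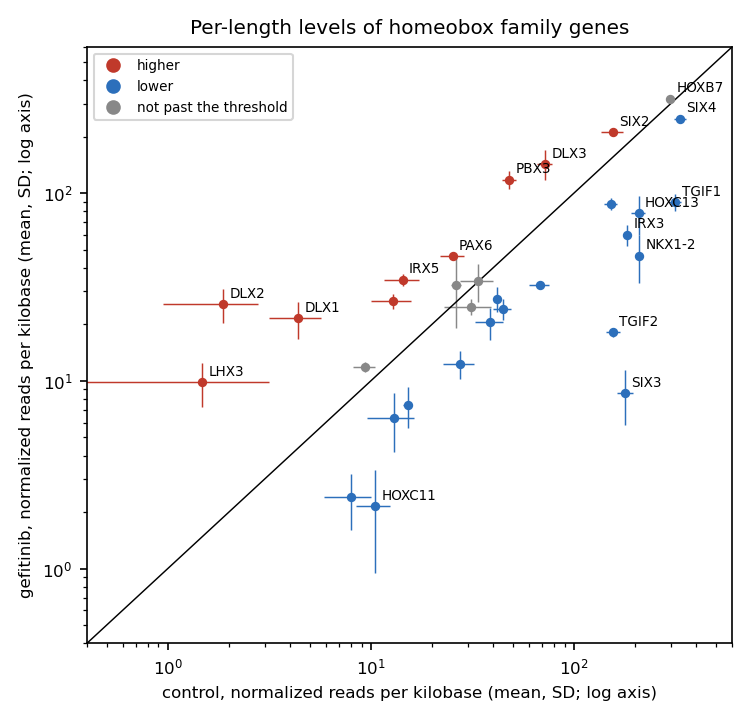
Mean normalized reads per kilobase of exon are plotted for 31 members, control on the x axis and gefitinib on the y axis, both log axes, with bars for the SD over 3 libraries and a line of equal level; bars that reach 0 end at the axis. SIX3, TGIF2 and NKX1-2 lie far below the line, DLX1, DLX2 and LHX3 far above it at low control levels, and HOXB7 close to it at the top.

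Gene lists beside the members show how the regulators and partners of these factors moved. Of 40 Polycomb and Trithorax genes, whose products silence HOX clusters or keep them active, 16 rose, 9 fell and 15 did not pass, with a median of 0.21. The shares of 40.0% higher and 22.5% lower compare with 28.3% and 22.8% of all genes tested, and the lower share is at that background. MEN1, which encodes menin, a partner of the Trithorax methyltransferases, rose from 313 ± 97.5 to 1553 ± 195 normalized reads (SD, n = 3; difference 2.35 ± 0.22 SE). RBBP5, a methyltransferase core subunit gene, rose from 725 ± 22.3 to 2021 ± 38.6. CBX6, a Polycomb gene, fell from 4264 ± 560 to 1592 ± 56.3.

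Of 17 SMAD partners of TGIF and targets of bone morphogenetic proteins, 6 rose, 7 fell and 4 did not pass, with a median of 0.08. Higher calls were 35.3% and lower calls 41.2% of the list, beside 28.3% and 22.8% of all genes. SKI, a corepressor gene of the SMAD pathway, rose from 820 ± 74.4 to 2813 ± 340 normalized reads (SD, n = 3). ID3, a target of bone morphogenetic protein signals, fell from 677 ± 193 to 127 ± 20.7, SMAD3 from 3344 ± 88.5 to 1880 ± 63.0 and the ubiquitin ligase gene SMURF2 from 3652 ± 368 to 1864 ± 216. Retinoic acid genes, which include inducers of HOX clusters, had 2 of 14 higher, 6 lower and 6 not past the test, with a median of -0.22. These are 14.3% and 42.9%, beside the same 28.3% and 22.8%. ALDH1A3, which makes retinoic acid, fell from 12360 ± 112 to 4186 ± 189, and the receptor genes RARG and RXRA fell from 1859 ± 418 to 725 ± 57.0 and from 1803 ± 573 to 875 ± 40.5. CYP26B1, which degrades retinoic acid, rose from 14.9 ± 5.21 to 72.9 ± 26.6.

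Homeobox genes outside the symbol rule had 13 of 46 higher, 4 lower and 29 not past the test, with a median of 0.39. The higher share, 28.3%, equals that of all genes tested, and the lower share was 8.70% against 22.8%. ZFHX3 fell, with 1093 ± 128 normalized reads in control and 336 ± 7.52 with gefitinib (SD, n = 3), and ZHX2 fell from 857 ± 92.7 to 251 ± 18.3. POU3F1 had 0 reads in the control and 24 in the gefitinib group, at least 6.71-fold higher against a floor of 3 reads over the group. Of 13 lung epithelial genes listed, 8 were tested. Of these 8, 2 rose (25%), 1 fell (12.5%) and 5 did not pass, beside 28.3% and 22.8% of all genes. The median of the 8 was 0.62, but the 5 that did not pass had means between 0.156 and 21.2 normalized reads in either group. LPCAT1, a surfactant lipid enzyme gene, rose from 2178 ± 163 to 4734 ± 374 and the lipid transporter gene ABCA3 from 61.1 ± 11.1 to 117 ± 33.6, while the pioneer factor gene FOXA1 fell from 597 ± 29.3 to 397 ± 21.6.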

How the data were processed

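Values were taken from the table of coding genes, a signal that the authors made from read counts per gene by bringing every library to an equal sum; per the submitters' processing notes the tools were STAR and HTSeq with GRCh38, and strand setting and versions are not given in the sources used here. Divided by the smallest step in its library, 100% of values above 0 were whole to within 0.01 read, so reads were recovered; edgeR on them called 3707 genes higher and 3752 lower of 12167. Another deposited table has 6 per-sample columns whose names match no label; they were not used.

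Genes above 0 in any library (15229) were tested in R 4.3.3 with limma 3.58.1 and its intensity trend, using log2(value + 1), which understates the change of low genes, 2-sided, with Benjamini-Hochberg adjustment over all of them and a threshold of 0.05. edgeR 4.0.16 and DESeq2 1.42.0 were run on recovered reads as alternatives. On simulated data for this comparison (15017 genes), the test called 50.7% of 67 genes set to 1.5-fold and 88.1% of 67 set to 2-fold. It called 100% of 66 set to 4-fold, along with 10 of 14817 left alone. All genes set to change had means of 50 or more normalized reads. The shares therefore do not show what could be called among members with few reads. Far fewer genes were set to change there than the 51.1% called in the real libraries, so the rate of false calls may differ too. Libraries of a group differed by more than sampling noise.

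Positions, exon lengths and overlaps are from GENCODE release 29, matched by symbol for all 65 members; promoters are from RefSeq. Intervals and floors cover counting error only. Members, lists and motifs were chosen with earlier results of these data known. Values per library are given for members with a mean of 50 or more normalized reads, or called with a mean of 10 or more; others are given by means or ranges. Of each list up to 4 called genes with the smallest p are named. Some members and list genes enter the counts and sums but are not reported here by name or in figures.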

Additional observations from a re-analysis of the deposited data

How the results depend on the processing

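The alternatives were pseudocounts of 0.5 and 5, filters on low values, TMM and DESeq2 size factors, edgeR and DESeq2 on recovered reads, a replicate block, leaving out each library, and, added after the data were seen, edgeR without a count filter. Over these, members called higher numbered from 8 to 10 and members called lower from 18 to 21, and 26 of 30 calls held in every alternative that tested the gene; HOXA11, HOXA13, LHX3 and SIX2 lost theirs in at least 1. The replicate block gave 10 higher and 19 lower members and changed no other member call than that of HOXA11 (limma adjusted p = 0.0643). Same-numbered libraries had correlations of deviations of 0.127, 0.0440 and 0.0941, so the numbers were not taken as pairs; every control library correlated best with its own number except control replicate 2. HOXB5, uncalled in every alternative, changed sign at -0.0632 with TMM factors, -0.0605 with DESeq2 size factors, -0.0333 with edgeR, -0.0430 with DESeq2 and -0.0344 with edgeR without a count filter, and ranged from -0.146 to 0.185 with a library left out. HOXB6 ranged from -0.0792 to 0.475 with a library left out. The cause was not tested. TMM factors moved the median difference of all genes from 0.10 to 0.04 and the share of calls that were higher from 55.4% to 50.4%. Depth limits what could be called for members with few reads, such as LHX2, MEIS3 and MSX1.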
